A study of Mus musculus with 4 samples.

Results

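H3S10ph peaks were described over 10 genes of the Z-disc and of the Xin repeat family, *Ldb3*, *Myoz1*, *Tcap*, *Pdlim3*, *Mypn*, *Des*, *Actn3*, *Cmya5*, *Xirp1* and *Xirp2*, out of 21911 protein-coding genes of the annotation. They were chosen by the presence of peaks in these same lists, so presence, cover and rank are a description and carry no test. A gene was counted as marked in a list when a peak overlapped the gene or the 5 kb on either side of it by at least 1 bp. Histone 3 phosphorylated at serine 10 (H3S10ph) was mapped by ChIP-seq in gastrocnemius, a calf muscle, of 5 month old C57BL/6 mice described as male. The aim was to ask where the mark lies after eccentric contractions, in which the muscle is lengthened while it is active. The stimulated muscles (2 samples) made 50 such contractions under anaesthesia with xylazine and Zoletil, each a tetanus of 600 ms at 100 Hz with 30 s between contractions, and were collected directly afterwards. The unstimulated muscles (2 samples) were contralateral ones. They were taken from the mice that were stimulated, as the study describes it. Each sample was a pool of muscles from 6 mice.

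The Z-disc is the plate at each end of a sarcomere, in which α-actinin crosslinks the actin filaments and to which titin and desmin are anchored. It is a site where load on the fibre is sensed, and many of its proteins also take part in signalling. Xin proteins bind actin filaments through a repeated motif and are known from attachment sites and from muscle that is under repair or load. H3S10ph is known both from condensed chromosomes of dividing cells and, on small parts of the genome, from genes switched on by signalling kinases.

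The authors deposited 1 list of broad peaks per sample, with a fold enrichment over the background for each peak and without read counts, so reads per sample are unknown here and only the list lengths can be given. Replicates had been down-sampled to equal depth before peak calling, by the description in the methods. The unstimulated lists held 9094 peaks over 4.84 Mb in replicate 1 and 32740 peaks over 17.3 Mb in replicate 2. The stimulated lists held 10901 peaks over 5.68 Mb and 40683 peaks over 23.2 Mb. Replicates of a condition therefore differed more in list length than the conditions did. Unstimulated replicate 1 stood apart from the other samples, with 522 peaks on chromosome X against 19, 19 and 16, and 0 on chromosome Y against 7, 6 and 6. The mice are described as male, and the cause of these unlike counts was not tested. Differences between the groups are given with and without this sample. A gene without a peak is 1 without a call, which does not show that the mark was absent. Whole muscle was used, so more nuclei with the mark and more mark per nucleus cannot be told apart.

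Every peak of *Ldb3*, *Myoz1*, *Pdlim3*, *Des*, *Xirp2* and *Actn3* had a −log10 q of 0, so the counts below are counts of mostly weak calls. All 10 genes were marked in both stimulated lists. With a −log10 p threshold of 2.5 they were 5 (*Myoz1*, *Tcap*, *Mypn*, *Cmya5* and *Xirp1*), and with 3 they were 3 (*Tcap*, *Mypn* and *Cmya5*). With every list shortened to its 9094 peaks of highest −log10 p, called lists of equal length here, they were 6, and with the 9094 peaks of highest fold enrichment 7, the seventh being *Ldb3*. In unstimulated replicate 1 a peak was found for 2 of them, *Ldb3* and *Cmya5*, and in unstimulated replicate 2 for 7, all but *Ldb3*, *Myoz1* and *Des*. Among all protein-coding genes a peak was found for 14.0% and 39.3% in the unstimulated and for 19.9% and 52.5% in the stimulated lists, and for 15.3% in both stimulated lists. The difference between the means was 5.5 genes, and 3.0 genes without unstimulated replicate 1. The 2 genes marked after stimulation alone, in each stimulated list but not at rest, were *Des* and *Myoz1*, a pattern that 3.85% of all genes had. At a −log10 p threshold of 2.5 the genes of this pattern were *Xirp1* and *Myoz1*, and at 3 they were *Tcap* and *Cmya5*. The shares of all genes with this pattern, or marked in both stimulated lists, were counted over all peaks only. In single lists at 2.5, the marked genes numbered 1 and 4 in unstimulated and 8 and 5 in stimulated muscles. Of all protein-coding genes 9.46%, 10.6%, 14.4% and 17.8% were marked there. At 3 the numbers were 0, 1, 3 and 4, and the shares 2.44%, 2.18%, 4.49% and 4.04%. Over all peaks, *Cmya5* alone was marked in all 4 lists (4.57% of all genes) and so also in both unstimulated lists (9.11%). Its window is long, and among genes with a window of over 50 kb these shares were 15.4% and 27.3%. Of the genes, 8 carried a call in at least 1 unstimulated list (44.2% of all genes). Gene length bears on these shares, because a window of over 50 kb, as for *Ldb3*, *Mypn*, *Cmya5* and *Xirp2*, held a peak of both stimulated lists in 38.3% of genes, against 3.11% of windows under 20 kb, as for *Myoz1*, *Tcap*, *Des* and *Xirp1*.

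The peaks covered 0.247% and 1.22% of the bases of the 10 windows in the unstimulated lists and 2.98% and 4.39% in the stimulated lists. For the windows of all protein-coding genes these shares were 0.192%, 0.73%, 0.26% and 1.31%. The means were 0.734% ± 0.689 (SD, n = 2) in unstimulated and 3.69% ± 0.995 (SD, n = 2) in stimulated muscles, a difference of 2.95 percentage points, or 2.46 without unstimulated replicate 1. It was 1.34 at a −log10 p threshold of 3 and 1.95 with lists of equal length. Both stimulated lists lay above both unstimulated lists. The same held for 9 of the 10 genes taken singly (6.73% of all genes), *Actn3* being the exception, and for 8 over the gene body alone (4.97% of all genes). *Xirp1* and *Tcap* made up much of this. Without them the 4 values were 0.263%, 0.656%, 1.53% and 2.67%.

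**Figure D1:**
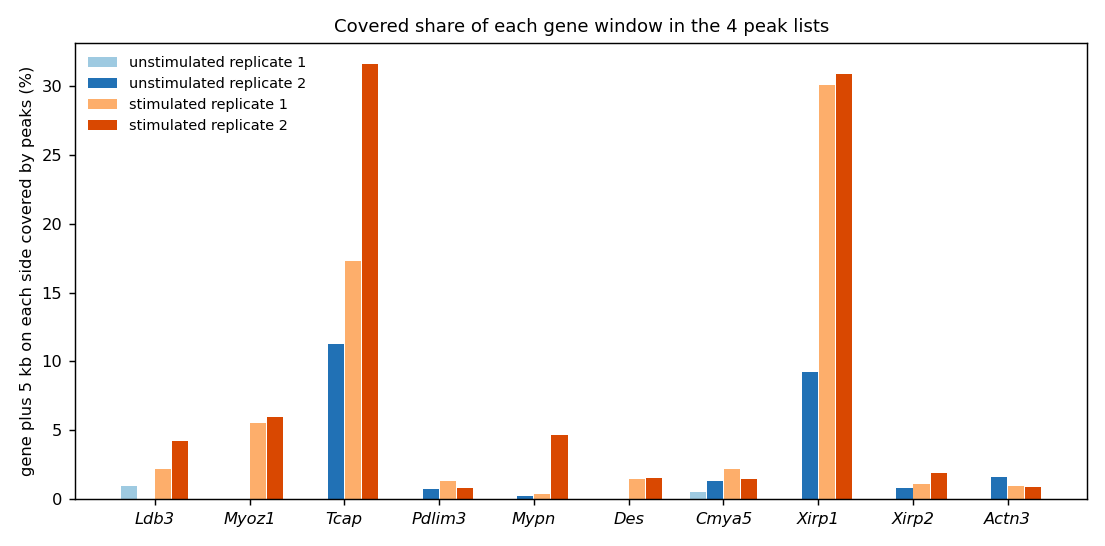
Covered share of the gene plus 5 kb on each side (%, vertical axis) for each of the 10 genes, with 1 bar for each of the 4 peak lists. *Tcap* (17.3% and 31.6%) and *Xirp1* (30.1% and 30.9%) stand above the other genes in the stimulated lists, and both also have a bar in unstimulated replicate 2.

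Bases that peaks of several samples had in common are shown for 5 genes, as these are the places that separate samples gave in common. Each sequence runs 5′ to 3′ on the strand of the gene and was read from the RefSeq GRCm38.p6 genome, which is the build mm10 of the lists. In *Ldb3*, *Myoz1* and *Cmya5* the capitals mark bases inside a peak of both stimulated lists. In *Tcap* and *Xirp1* all printed bases are inside the peaks of both stimulated lists, and the capitals mark those that the peak of unstimulated replicate 2 also held.
Tcap, chr11:98384243-98384542, plus strand: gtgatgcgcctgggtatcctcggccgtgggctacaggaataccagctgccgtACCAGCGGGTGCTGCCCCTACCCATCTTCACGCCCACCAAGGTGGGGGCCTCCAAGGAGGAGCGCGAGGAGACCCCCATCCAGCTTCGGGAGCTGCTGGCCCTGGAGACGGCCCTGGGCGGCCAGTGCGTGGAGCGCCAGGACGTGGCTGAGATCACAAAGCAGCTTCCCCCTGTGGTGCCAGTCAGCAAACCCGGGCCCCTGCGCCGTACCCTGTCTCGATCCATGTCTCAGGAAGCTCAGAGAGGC
Xirp1, chr9:120018175-120018474, minus strand: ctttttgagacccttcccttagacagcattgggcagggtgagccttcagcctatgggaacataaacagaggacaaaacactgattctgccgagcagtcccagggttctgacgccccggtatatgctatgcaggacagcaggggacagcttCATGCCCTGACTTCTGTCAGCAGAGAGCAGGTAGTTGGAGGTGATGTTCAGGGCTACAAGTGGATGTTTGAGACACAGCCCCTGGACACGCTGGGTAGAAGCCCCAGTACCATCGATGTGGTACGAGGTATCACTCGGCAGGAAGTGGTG
Ldb3, chr14:34554529-34554828, minus strand: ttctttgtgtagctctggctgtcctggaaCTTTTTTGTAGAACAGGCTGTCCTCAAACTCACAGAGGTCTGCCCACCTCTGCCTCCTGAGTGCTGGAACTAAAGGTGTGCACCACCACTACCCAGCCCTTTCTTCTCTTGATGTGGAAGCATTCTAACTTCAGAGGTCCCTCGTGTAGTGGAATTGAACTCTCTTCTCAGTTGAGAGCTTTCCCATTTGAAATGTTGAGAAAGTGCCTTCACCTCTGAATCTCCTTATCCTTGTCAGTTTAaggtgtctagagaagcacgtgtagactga
Myoz1, chr14:20660492-20660791, minus strand: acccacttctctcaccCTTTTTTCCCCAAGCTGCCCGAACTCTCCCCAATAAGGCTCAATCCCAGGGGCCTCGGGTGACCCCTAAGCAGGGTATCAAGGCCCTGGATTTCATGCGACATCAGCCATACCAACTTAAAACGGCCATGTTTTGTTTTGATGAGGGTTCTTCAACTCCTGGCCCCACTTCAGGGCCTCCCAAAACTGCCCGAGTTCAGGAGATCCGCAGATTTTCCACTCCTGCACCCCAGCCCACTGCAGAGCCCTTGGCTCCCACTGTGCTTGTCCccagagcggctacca
Cmya5, chr13:93096840-93097139, minus strand: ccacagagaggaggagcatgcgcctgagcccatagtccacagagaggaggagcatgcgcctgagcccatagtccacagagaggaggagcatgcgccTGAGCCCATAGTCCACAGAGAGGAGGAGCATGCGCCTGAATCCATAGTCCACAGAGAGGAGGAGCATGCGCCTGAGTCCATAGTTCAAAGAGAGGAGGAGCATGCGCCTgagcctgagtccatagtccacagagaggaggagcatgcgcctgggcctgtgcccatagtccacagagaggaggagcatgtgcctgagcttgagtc
The *Tcap* and *Xirp1* stretches are coding sequence, with a GC content of 66.7% and 54.3%. The *Ldb3* stretch is intronic, and 43.0% of it is soft-masked as repeat.

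*Tcap* encodes telethonin, which caps the end of titin in the Z-disc. The gene is short, 1143 bp on the plus strand at chr11:98383811-98384953. No peak was listed in unstimulated replicate 1, whereas unstimulated replicate 2 had a peak of 1264 bp over 57.7% of the gene body. The stimulated peaks measured 1930 bp and 2816 bp and covered 84.3% and 91.9%. Each wider peak contained the narrower ones, the start of the gene lay outside all of them, and all ran past the 3′ end, in stimulated replicate 2 as far as the neighbouring gene *Pnmt*. The larger coding exon, exon 2, was covered to 63.4% in unstimulated replicate 2, as the sequence above shows in part, and to 100.0% in both stimulated lists. Fold enrichment was 2.38 (rank 1411) in unstimulated replicate 2, 2.88 (rank 126) in stimulated replicate 1 and 4.19 (rank 15) in stimulated replicate 2, which put the peak in the top 4.31%, 1.16% and 0.0369% of its list. It was the only peak of the 10 genes with a −log10 q above 1, at 4.38 in stimulated replicate 2; the *Tcap* peak of stimulated replicate 1 had 0.407. Between the groups the window cover was 5.67% ± 8.02 and 24.4% ± 10.1 (SD, n = 2), a difference of 18.8 percentage points, and 13.1 without unstimulated replicate 1 or 11.6 without stimulated replicate 2.

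*Xirp1* encodes Xin, the smaller of the Xin repeat proteins. It lies on the minus strand at chr9:120013755-120023598, inside the annotated span of *Cx3cr1* on the same strand, so its peaks are counted for both. A single peak of 5973 bp was found in stimulated replicate 1 and another of 6127 bp in stimulated replicate 2, and in each list it was the peak with width rank 6. They had 5973 bp in common. They reached from the coding exon 2 to beyond the 3′ end of the gene, covered 56.6% and 57.0% of the gene body, and left the 5′ part free of calls. Exon 2 holds 3390 of the 3438 coding bases of *Xirp1*, and 85.5% and 86.6% of its coding part was covered. Unstimulated replicate 2 had 3 smaller peaks of 1288 bp, 325 bp and 222 bp, the first 2 of them inside the stretch of the stimulated peaks, and covered 16.4% of the gene body. Unstimulated replicate 1 had none. In fold enrichment the peaks were less apart than in width, at 2.17 in unstimulated replicate 2 against 2.42 and 2.46 in the stimulated lists. Within their own lists their ranks were 8348 (top 25.5%), 1998 (top 18.3%) and 1042 (top 2.56%). The window cover was 4.62% ± 6.54 in unstimulated and 30.5% ± 0.549 in stimulated muscles (SD, n = 2), a difference of 25.9 percentage points, and 21.2 without unstimulated replicate 1. At a −log10 p threshold of 3 it was 15.4, as the peak of stimulated replicate 1, with a −log10 p of 2.98, was then left out.

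*Xirp2*, which encodes the larger Xin repeat protein and like *Cmya5* has a very long coding exon, had no peak in unstimulated replicate 1, 2 in unstimulated replicate 2, 1 in stimulated replicate 1 and 3 in stimulated replicate 2, and no base was shared between lists. Its window cover was 0%, 0.818%, 1.06% and 1.91%, with a difference of the means of 1.07 percentage points that was 0.664 without unstimulated replicate 1 and 0.648 without stimulated replicate 2, and 0.249 with lists of equal length and −0.28 at a −log10 p threshold of 2.5. The coding exon 7, of 9265 bp, was free of peaks except in stimulated replicate 2, where a peak of 1124 bp lay wholly inside it and covered 12.1%. The best ranks of *Xirp2* were 3295 (top 10.1%) in unstimulated replicate 2, 8001 (73.4%) in stimulated replicate 1 and 13034 (32.0%) in stimulated replicate 2.

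*Cmya5* encodes myospryn, a large protein that binds desmin and α-actinin. Its window cover was 0.492% and 1.29% in unstimulated and 2.18% and 1.42% in stimulated muscles, or 0.892% ± 0.566 and 1.80% ± 0.539 (SD, n = 2). The difference of 0.909 percentage points was 0.509 without unstimulated replicate 1 and 0.528 without stimulated replicate 1. The peak of unstimulated replicate 1 was 4379 bp upstream of the gene, within *Tent2*, and shared no base with the others. Unstimulated replicate 2 and both stimulated samples had peaks that met inside the coding exon 2, of 9310 bp, where chr13:93096935-93097043 was covered in all 3 lists. These 109 bases, in capitals in the sequence above, are part of a tandem repeat. Shifted by 36 bp, 93.2% of them match themselves. The word AGAGAGGAGGAGCATG occurs 11 times within 508 bp of the exon and 18 times on all chromosomes together. Copies of the word inside the peaks numbered 7 in unstimulated replicate 2, 6 in stimulated replicate 1 and 8 in stimulated replicate 2, and the part of the repeat in these calls was not tested. The peaks that cover these bases had rank 2077 in unstimulated replicate 2, 4631 in stimulated replicate 1 and 739 in stimulated replicate 2. Stimulated replicate 2 had a further peak of 333 bp in the same exon, with rank 21893. The highest *Cmya5* peak of stimulated replicate 1 was another one, mostly in an intron, with fold enrichment 2.75 and rank 249.

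*Ldb3* encodes ZASP (also called Cypher), which binds α-actinin through a PDZ domain. Unstimulated replicate 1 had 1 peak, unstimulated replicate 2 had none, and the stimulated lists had 2 and 6, with a window cover of 0.975%, 0%, 2.14% and 4.18%. The means were 0.488% ± 0.690 and 3.16% ± 1.44 (SD, n = 2), the groups did not overlap, and the difference of 2.67 percentage points was 3.16 without unstimulated replicate 1 and 1.66 without stimulated replicate 2. It was 0.614 at a −log10 p threshold of 2.5. With lists of equal length it was 0.126, and *Ldb3* was then no longer marked in both stimulated lists, whereas with the lists shortened by fold enrichment it was 0.825 and the gene was still marked in both. The stimulated lists met in an intron at chr14:34554558-34554799, where the 242 bp peak of replicate 2 lay wholly inside the 885 bp peak of replicate 1. The peak of unstimulated replicate 1, at chr14:34555600-34556302 in the same part of the gene, did not touch them. All *Ldb3* peaks were of modest height, with best ranks of 8357 of 9094, 5131 of 10901 and 8796 of 40683.

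*Myoz1*, which encodes a calsarcin that ties calcineurin to α-actinin, had no peak over its body in any list. Its calls came from the upstream 5 kb, of which 19.2% and 20.7% were covered in the stimulated lists and 0% in the unstimulated ones. The shared stretch, chr14:20660507-20660775, lies within the neighbour *Synpo2l*, itself a gene for a Z-disc protein, and was counted for both genes. The best ranks were 6339 (top 58.2%) and 6170 (top 15.2%). The first was that of another peak, of 238 bp and 1454 bp upstream. The peak of stimulated replicate 1 over the shared stretch had rank 9816 (90.0%) and a −log10 p of 2.39. At a threshold of 2.5 and with lists of equal length it was left out. *Myoz1* was then marked in both stimulated lists by peaks at different places. *Des* encodes desmin, the intermediate filament that ties Z-discs of neighbouring myofibrils together. It had 1 small peak in each stimulated list, of 264 bp in non-coding exon sequence near the 3′ end in replicate 1 and of 280 bp across the end of exon 1 in replicate 2. The covers were nearly equal, at 1.45% and 1.53% of the window, but the places were at opposite ends of the gene.

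*Mypn* encodes myopalladin, which links nebulin to α-actinin. Cover of its window was 0%, 0.219%, 0.344% and 4.66%, so the difference of the means, 2.39 percentage points, rested on the 6 peaks of stimulated replicate 2. It was 0.235 without that sample, 4.55 without stimulated replicate 1 and 2.28 without unstimulated replicate 1. At a −log10 p threshold of 3 it was 0.593, and with lists of equal length 0.734. The highest rank of any gene here in an unstimulated list was the *Mypn* peak of 215 bp in unstimulated replicate 2, with fold enrichment 2.57 and rank 271 (top 0.828%). In the stimulated lists the best *Mypn* peaks had 2.48 (rank 1416) and 2.44 (rank 1185). None of the *Mypn* peaks overlapped between lists.

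*Pdlim3* encodes an α-actinin-associated PDZ and LIM protein, and *Actn3* the α-actinin of fast fibres. *Pdlim3* had 1 peak in each list except unstimulated replicate 1, all in the 3′ part of the gene and none touching another, with window covers of 0.699% in unstimulated replicate 2, 1.29% in stimulated replicate 1 and 0.823% in stimulated replicate 2. The difference of 0.707 percentage points was 0.357 without unstimulated replicate 1 and turned to −0.349 with lists of equal length. *Actn3* had 1.58% in unstimulated replicate 2 against 0.937% and 0.865%, the groups overlapped, and the difference of the means, 0.112 percentage points, turned to −0.676 without unstimulated replicate 1. The *Actn3* peak of stimulated replicate 2 lay 2376 bp upstream, within *Zdhhc24*. Neither gene had a peak with a −log10 p of 3.

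**Figure D2:**
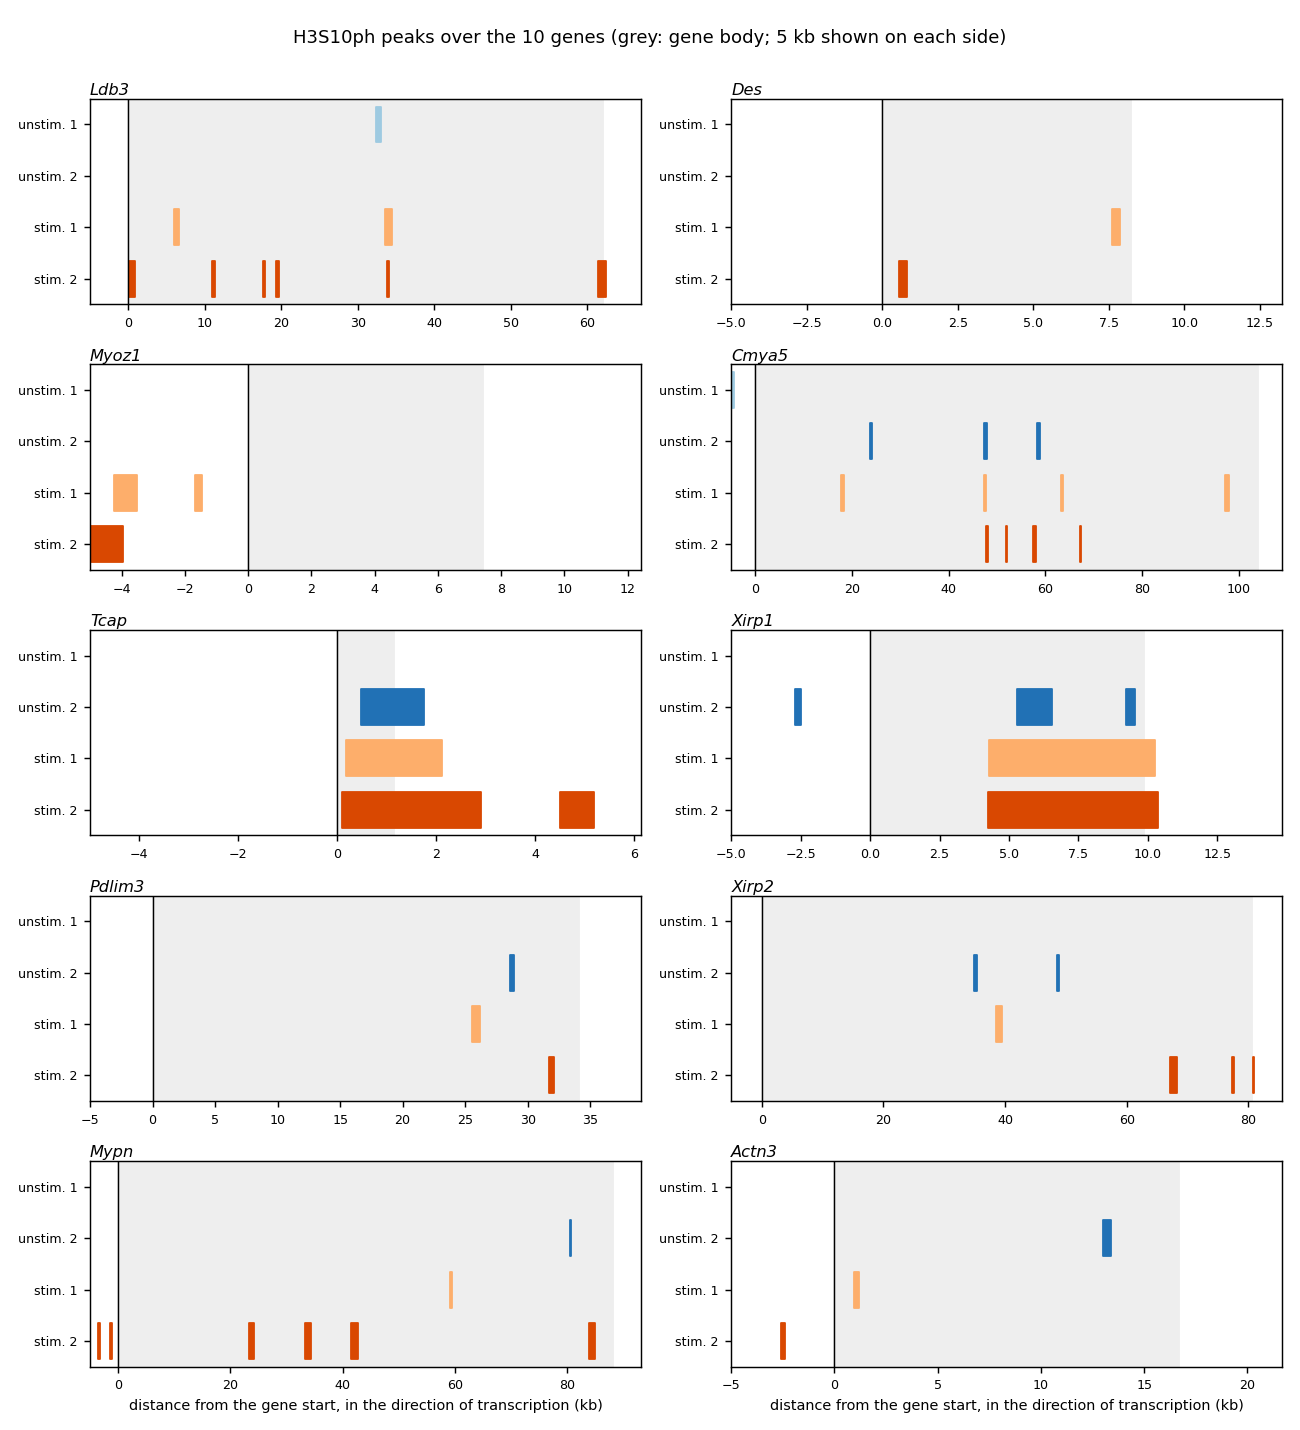
Peaks of the 4 lists over each of the 10 genes, by distance from the gene start in the direction of transcription (kb, horizontal axis); rows are the samples, grey is the gene body, 5 kb is shown on each side and very narrow peaks are drawn slightly widened. Peaks of *Tcap* and *Xirp1* stack over the 3′ part of the gene in 3 of the 4 lists, whereas those of *Pdlim3*, *Mypn*, *Des*, *Xirp2* and *Actn3* fall at different places in each list.

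Peaks near the genes numbered 2 and 12 in the unstimulated and 15 and 26 in the stimulated lists. Bases common to both stimulated lists were found for 5 genes (*Cmya5*, *Ldb3*, *Myoz1*, *Tcap* and *Xirp1*; 1.28% of all protein-coding genes), and bases common to unstimulated replicate 2 and either stimulated list for 3 of these (*Cmya5*, *Tcap* and *Xirp1*; 3.31% of all genes). The peaks of unstimulated replicate 1 shared no base with those of any other list (1.19% of all genes had such a base). Thus *Tcap*, *Xirp1* and *Cmya5* carried a call at the same place in 1 resting sample, while the other unstimulated calls lay elsewhere. The 5 kb limit left 10 peaks outside the gene bodies but inside the windows, the farthest being that of *Cmya5* in unstimulated replicate 1 at 4379 bp, and the nearest peak beyond the limit lay 6566 bp from *Ldb3* in stimulated replicate 2.

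No peak covered an annotated start of these genes in any list. The closest calls, both in stimulated replicate 2, began 93 bp inside *Tcap* and 135 bp inside *Ldb3*. The one in *Ldb3* measured 804 bp and touched coding sequence. After each gene was cut into 3 equal parts, the 5 kb upstream were covered to 1.92% and 3.68% in the stimulated lists. The 5′ part was covered to 1.39% and 2.34% in the stimulated lists, the middle part to 4.01% and 4.84%, the 3′ part to 4.02% and 5.25%, and the 5 kb downstream to 2.74% and 7.10%. Over all protein-coding genes the same segments, from upstream to downstream, were covered to 0.27%, 0.249%, 0.256%, 0.266% and 0.276% in stimulated replicate 1 and to 1.41%, 1.35%, 1.23%, 1.28% and 1.5% in stimulated replicate 2. Unstimulated replicate 2 had 0.444% upstream, 0.163% in the 5′ part, 2.59% in the middle part, 1.2% in the 3′ part and 1.21% downstream. Unstimulated replicate 1 had 1.12% upstream, 0.511% in the middle part and 0% in the other segments. Over all protein-coding genes the segments had 0.606%, 0.683%, 0.734%, 0.799% and 0.768% in unstimulated replicate 2. In unstimulated replicate 1 they had 0.132%, 0.188%, 0.214%, 0.203% and 0.162%. *Tcap* and *Xirp1* decided most of the 3′ cover. Without them the 5 kb upstream were the most covered segment in both stimulated lists, at 2.4% and 4.59%. *Myoz1* supplied all 961 covered upstream bases in stimulated replicate 1 and 1034 of 1838 in stimulated replicate 2. The other stimulated values were then 1.28% and 2.19% in the 5′ part, 2.12% and 2.95% in the middle part, 1.40% and 2.66% in the 3′ part, and 0% and 1.42% downstream.

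**Figure D3:**
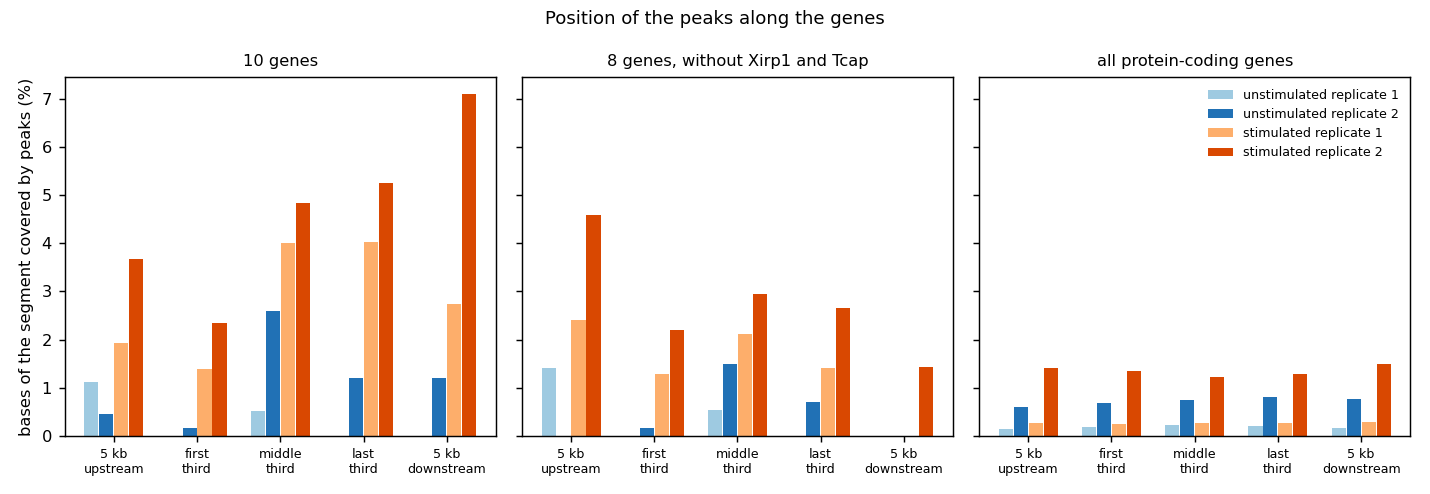
Share of the bases covered by peaks (%, vertical axis) in the 5 kb upstream, in 3 equal parts of the gene and in the 5 kb downstream, with 1 bar per list, for the 10 genes, for the 8 genes other than *Xirp1* and *Tcap*, and for all protein-coding genes. Within the genes the stimulated bars of the 10 genes are lowest in the 5′ part (1.39% and 2.34%) and reach 4.02% and 5.25% in the 3′ part, whereas without *Xirp1* and *Tcap* the upstream bars are the highest (2.4% and 4.59%).

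Exons made up 57.7% of the covered gene bases in unstimulated replicate 2, 52.9% in stimulated replicate 1 and 53.8% in stimulated replicate 2, where 13.6% of all bases of these genes are exonic. The single peak over a gene body in unstimulated replicate 1 was intronic. Without *Xirp1* and *Tcap* the shares were 27.3%, 13.5% and 29.9%, against 12.3% of bases. For all protein-coding genes 10.6%, 11.9% and 12.9% of the covered gene bases were exonic in the same lists, against 9.06% of bases. The median peak near the 10 genes had a GC content of 45.3% in unstimulated replicate 1, 51.2% in unstimulated replicate 2, 50.4% in stimulated replicate 1 and 46.9% in stimulated replicate 2, against 38.0%, 43.9%, 44.5% and 44.5% for all peaks of the lists, and the part of GC content in the calls was not tested.

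Ranks by fold enrichment hold within a list only, and since the lists differ in length they are set side by side without a comparison. The median of the best ranks was the top 10.1% of the list in unstimulated replicate 2 (7 genes), 37.8% in stimulated replicate 1 and 17.4% in stimulated replicate 2 (10 genes each), and 67.3% in unstimulated replicate 1 (2 genes). The methods name a p cutoff that equals a −log10 p of 3, but the lists also hold peaks below it. How the listed −log10 p of a peak relates to that cutoff is not known here. A listed value of 3 was reached by 0 genes in unstimulated replicate 1 and by *Mypn* in unstimulated replicate 2. It was reached by *Cmya5*, *Mypn* and *Tcap* in stimulated replicate 1 and by these and *Xirp1* in stimulated replicate 2. For all protein-coding genes these shares were 2.44%, 2.18%, 4.49% and 4.04%.

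**Figure D4:**
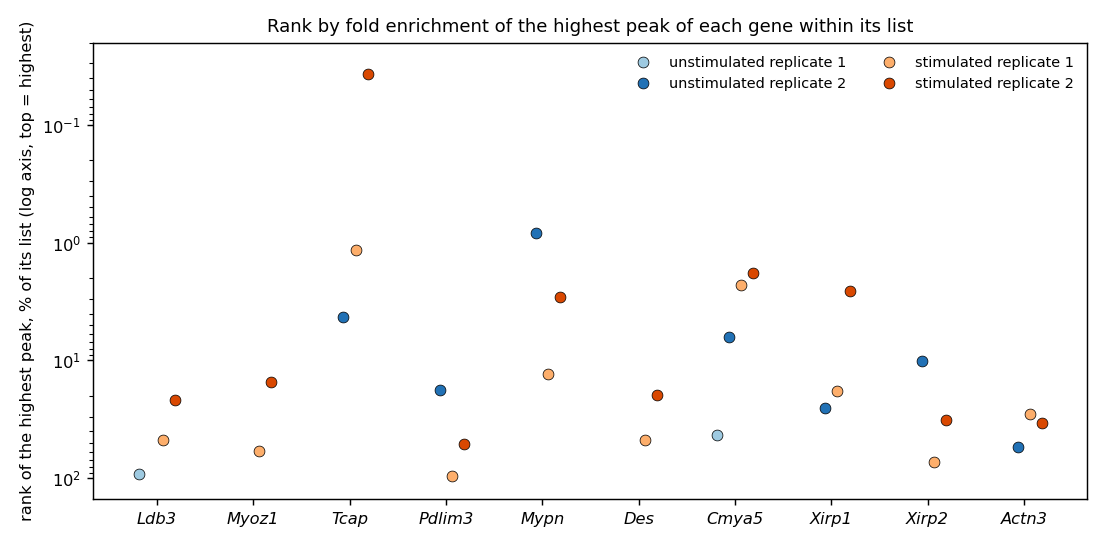
Rank by fold enrichment of the highest peak of each gene, as a percent of its list (log axis, highest ranks at the top), with 1 point per list that has a peak. *Tcap* in stimulated replicate 2 (0.0369%) and *Mypn* in unstimulated replicate 2 (0.828%) are the points above 1%.

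Promoter sequences, from 250 bases before to 50 after the start, were taken from RefSeq (GRCm38.p6) and matched for 6 of the 10 genes, with 2 starts for *Ldb3*. *Myoz1*, *Tcap*, *Xirp1* and *Actn3* had no entry in the set of promoters used here. No peak of any list covered a base of these promoters. Searched on both strands for the CArG box bound by SRF, the MEF2 site, the E-box CANNTG, the MCAT element CATTCC and the AP-1 site TGANTCA, they gave a CArG box and an AP-1 site for *Ldb3* and a MEF2 site and an AP-1 site for *Xirp2*, 2 MCAT elements for *Pdlim3* and 1 for *Mypn*. *Pdlim3*, *Mypn*, *Des*, *Cmya5* and *Xirp2* held at least 1 E-box. An E-box and the MCAT element of *Mypn* share a base, and the E-boxes of *Xirp2* overlap each other. Among 32851 promoters a match was held by 1.63% for the CArG box, 3.19% for the MEF2 site, 72.3% for the E-box, 14.7% for MCAT and 7.81% for AP-1. The 250 bases before the start are shown for *Ldb3* and *Xirp2*, with the CArG box, MEF2 and AP-1 matches in capitals.
Ldb3, chr14:34588682-34588931, minus strand: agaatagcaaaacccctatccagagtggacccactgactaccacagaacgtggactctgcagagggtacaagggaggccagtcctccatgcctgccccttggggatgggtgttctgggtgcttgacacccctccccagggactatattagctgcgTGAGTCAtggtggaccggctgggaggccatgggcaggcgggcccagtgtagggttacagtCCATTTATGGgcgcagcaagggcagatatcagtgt
Xirp2, chr2:67445752-67446001, plus strand: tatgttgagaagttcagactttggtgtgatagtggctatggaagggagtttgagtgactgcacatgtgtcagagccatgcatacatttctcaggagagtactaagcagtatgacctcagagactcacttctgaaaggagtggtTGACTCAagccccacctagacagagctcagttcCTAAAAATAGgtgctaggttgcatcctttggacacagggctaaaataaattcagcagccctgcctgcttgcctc
In *Ldb3* the CArG box begins 35 bases and the AP-1 site 95 bases before the start whose sequence is shown (109 and 169 bases before the other start), and in *Xirp2* the MEF2 site begins 74 bases and the AP-1 site 107 bases before it.

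Other genes of the same structures were taken from lists written from general knowledge. Of all protein-coding genes, 14.0% and 39.3% were marked in the unstimulated and 19.9% and 52.5% in the stimulated lists. Both stimulated lists marked 15.3% of all genes, both unstimulated lists 9.11% and all 4 lists 4.57%. Both stimulated but neither unstimulated list marked 3.85%. Of 33 other Z-disc genes, 6 and 21 had a peak in the unstimulated lists and 14 and 30 in the stimulated lists, with 13 in both stimulated lists. *Synpo2l*, the neighbour of *Myoz1*, was again marked in each stimulated list and not at rest. *Capza2*, *Neb*, *Palld*, *Ppp3ca* and *Ttn* were marked in both unstimulated lists, and of these *Ttn*, for titin, had the largest body cover, with 1.44%, 14.7%, 10.6% and 24.4%. Of 15 thin filament genes, 1 and 10 were marked in the unstimulated and 5 and 10 in the stimulated lists, *Tpm2* in each stimulated list and not at rest, and *Tnnt3* in all 4. Of 12 myosin genes the numbers were 1 and 7 against 3 and 7, and *Myh4*, the myosin of the fastest fibres, was marked in all 4 lists with a body cover of 5.43%, 43.1%, 32.3% and 61.1%. Wide cover in unstimulated replicate 2 was thus found at other sarcomere genes, too.

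By the covered share of the gene body in the 4 lists, the genes nearest to *Tcap*, the gene with the highest stimulated mean among the 10, were *Fos* (Euclidean distance 20.6 percentage points), *Acta1* (54.4), *Egr1* (55.8), *Jun* (59.6) and *Gadd45g* (59.8), over 4 samples. *Fos* had 0%, 42.5%, 96.4% and 98.7%, next to 0%, 57.7%, 84.3% and 91.9% for *Tcap*. *Acta1*, for skeletal α-actin, had 0%, 90.0%, 53.6% and 60.8%, with unstimulated replicate 2 above both stimulated samples and unstimulated replicate 1 below them.

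Markers of the cell types in whole muscle were marked as follows, where all protein-coding genes had 14.0% and 39.3% in the unstimulated and 19.9% and 52.5% in the stimulated lists. Of 10 muscle fibre markers 1 and 6 had a peak in the unstimulated and 4 and 8 in the stimulated lists, *Atp2a1* being marked in all 4. Of 5 satellite cell markers the numbers were 0, 2, 1 and 4, of 6 fibroblast markers 1, 2, 3 and 1, of 5 endothelial markers 0, 4, 1 and 5, and of 5 macrophage markers 1, 2, 1 and 4, in the order of the lists. In both stimulated lists the fibre markers *Atp2a1*, *Pvalb* and *Ryr1* were marked, with *Tek* among endothelial and *Mrc1* among macrophage markers. *Mrc1* was also marked in both unstimulated lists. No satellite cell or fibroblast marker was marked in both stimulated lists, where 15.3% of all protein-coding genes were. Peaks of a histone mark do not measure which cells were present, and the part of cell composition in the results was not tested.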

How the data were processed

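H3S10ph ChIP-seq of 4 pools of mouse gastrocnemius was analysed. By the methods, the authors aligned reads to mm10, kept uniquely mapping ones (bamtools 2.4.0), down-sampled replicates to equal depth and called broad peaks per sample against input (MACS2 2.1.1). The submitters' processing notes name BWA 7.12 and give version 2.4.0 under SAMtools. The deposited lists give for each peak a fold enrichment (a ratio), the −log10 p-value and the −log10 q-value. The deposited score column and reads were not used here. The methods name a p cutoff of 0.001, whereas the lowest −log10 p in the lists is about 2.

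Peaks were intersected with protein-coding genes of GENCODE release 21 for mouse (1 entry per symbol, the longest) in Python 3.11.15 (numpy 2.4.6, pandas 2.3.3, pysam 0.24.0, matplotlib 3.10.9). The interval code was tested on simulated data. Gene windows were the gene plus 5 kb on each side, overlap was at least 1 bp, and a rank is 1 plus the number of peaks of the same list with a higher fold enrichment. No test was made, since the genes were chosen from these peaks. Both conditions came from the same mice according to the study, but whether pools with the same replicate number share mice is not given in the sources used here. Genes and lists were chosen with earlier results of these data known. Genes named from other lists are those marked in both stimulated and neither unstimulated list or in both unstimulated lists. The 5 genes nearest to *Tcap* were named as well. *Atp2a1*, *Pvalb*, *Ryr1*, *Tek* and *Mrc1* also meet a stated count. Alternatives were a −log10 p of at least 2.5 or 3, lists of equal length (the 9094 peaks of highest −log10 p in each list, and also, chosen after the data were seen, those of highest fold enrichment), the gene body alone, most of the peak inside the window, ranks by −log10 p, each sample left out, and differences within replicate numbers.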

Additional observations from a re-analysis of the deposited data

How the results depend on the processing

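The mean number of genes with a peak and the mean covered share stayed higher in stimulated muscles under every alternative tried, by differing amounts. The difference in genes with a peak, 5.5 as reported, was 3.5 with lists of equal length by −log10 p (2 and 6 against 9 and 6 genes), 4.0 with lists of equal length by fold enrichment (2 and 6 against 9 and 7) and 3.0 with a −log10 p threshold of 3, and ranged from 3.0 (without unstimulated replicate 1) to 8.0 (without unstimulated replicate 2) with 1 sample left out. The difference in covered share, 2.95 percentage points, was 2.05 with a threshold of 2.5, 1.34 with 3, 1.95 with lists of equal length by −log10 p and 2.14 by fold enrichment, and ranged from 2.25 to 3.65 with 1 sample left out. In alternatives chosen after the data were seen, as were the lists by fold enrichment, it was 2.03 without *Xirp1* and 1.64 without *Xirp1* and *Tcap*. Taken as a replicate block, that is within equal replicate numbers, the differences were 8.0 and 3.0 genes (mean 5.5) and 2.73 and 3.17 percentage points (mean 2.95). Genes marked in both stimulated lists fell to 5 at 2.5, to 3 at 3, and to 6 with lists of equal length by −log10 p and 7 by fold enrichment. The share of all genes marked in both stimulated lists was counted over all peaks only, at 15.3%. Genes marked in both unstimulated lists, and in all 4, fell to 0 at 3 and over the gene body alone, and those marked in both stimulated and neither unstimulated list to 1 over the gene body (*Des*), while at 2.5 *Xirp1* took the place of *Des*, and at 3 *Tcap* and *Cmya5* that of both. Cover in the 3′ part or downstream, as a share of covered bases in the stimulated lists, was 46.5% over all peaks, 57.6% at 3, and with lists of equal length 52.7% by −log10 p and 48.8% by fold enrichment. At 3 it was taken over 3 and 4 marked genes. Over all peaks, *Xirp1* and *Tcap* supplied most of this cover. Without them the 3′ part held 25.4% and 27.7% of covered bases in the stimulated lists. The downstream 5 kb then held 0% and 4.41%. Over all protein-coding genes the downstream 5 kb held 9.0% and 9.7%. Their 3′ part held 28.4% in stimulated replicate 1 and slightly less than 27.7% in stimulated replicate 2. Of 90 recomputed differences of single genes, 62 moved by less than the spread between replicates, 23 by more (at 3 those of *Ldb3*, *Myoz1*, *Pdlim3*, *Des* and *Xirp2* were 0), and 5 changed sign: *Pdlim3* with lists of equal length of either kind (−0.349 in both), *Xirp2* at 2.5 (−0.28), and *Actn3* over the gene body (−0.512) and without unstimulated replicate 1 (−0.676, against 0.901 without unstimulated replicate 2). This spread came from 2 samples per condition and was wide for some genes. For *Mypn* it was 2.16 percentage points, so a fall from 2.39 to 0.235 without stimulated replicate 2 counted as less than the spread. Over the gene body the differences of *Tcap* (59.3), *Xirp1* (48.6) and *Des* (3.3) counted as more, but they are shares of the body and not of the window. The causes of these changes were not tested. The number of reads is unknown, and 2 samples per condition limit every comparison.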
